A study of Mus musculus with 15 samples.

Results

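Hepatocytes take bile salts up from blood, secrete them into the bile canaliculus between neighbouring cells and, in cholestasis, can return them to blood. The 10 genes described here encode the membrane proteins of these 3 steps. Slc10a1 encodes NTCP, the sodium-dependent bile salt uptake carrier of the hepatocyte's blood side, and Slc10a2 encodes ASBT, the related carrier of ileum and bile duct cells. On the canalicular side, Abcb11 encodes the bile salt export pump BSEP, Abcb4 the phosphatidylcholine floppase MDR2, Abcc2 the conjugate pump MRP2 and Abcb1a a P-glycoprotein that exports drugs. Abcc3 and Abcc4 encode MRP3 and MRP4, efflux pumps of the blood side, and Slc51a and Slc51b encode the 2 subunits of the organic solute transporter OSTα/OSTβ, which works only as a heteromer. The members were chosen by name from the 24493 genes of the deposited table, and 9 of the 10 reached 1 TPM, the sequencing unit of transcript abundance corrected for length and library total, in at least 3 libraries. Slc51a did not.

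RNA was sequenced from 15 libraries of sorted mouse liver cells in 5 groups of 3, here called libraries 1 to 3 of each group. Mice fed DDC, a porphyrinogenic compound in chow that causes cholestatic injury, gave reprogrammed cells, biliary epithelial cells and hepatocytes, and untreated mice gave biliary epithelial cells and hepatocytes. When 4 weeks old, all mice, controls included, received AAV-TBG-Cre, whose Cre is driven by the hepatocyte promoter TBG, for labelling of cells. DDC feeding began at 5 weeks of age and lasted 4 weeks. The series title names the reprogrammed cells as reprogrammed hepatocytes. Strain, sex, reporter allele, the sorting markers and the age of untreated mice at harvest could not be learned from the labels. Since no label says that libraries of a group came from separate animals, the spread behind each p-value is that between libraries and may be technical.

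Values are TPM divided by 1 scale factor per library, called scaled TPM, and means are given ± SD (n = 3). Each log2 difference compares group means of log2(scaled TPM + 1), a scale on which changes of low genes come out too small, and p-values are from limma with Benjamini-Hochberg adjustment over 13905 genes. A call, also written as higher or lower, rose or fell, asks for both an adjusted p below 0.05 and a log2 difference of 1 or more in either direction. Read totals are not kept in TPM, so depth and counting error are unknown. Before scaling, the median gene stood 1.11 higher (log2) in untreated biliary cells than in untreated hepatocytes, 1.06 higher in the same comparison under DDC, and 0.71 higher in the comparison of reprogrammed cells with DDC hepatocytes. Directions between cell types are therefore relative to the median gene. Between 10231 and 13636 genes reached 1 TPM per library.

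The sorted populations carried the mRNAs of their labelled cell type, but biliary and reprogrammed libraries also carried hepatocyte mRNAs, and some biliary markers were higher in DDC than in untreated hepatocytes. Krt19, a bile duct keratin, averaged 263 ± 43.3 in reprogrammed cells, 554 ± 104 in biliary cells and 1.503 ± 0.121 in hepatocytes of DDC mice, against 435 ± 117 in biliary cells and 0.287 ± 0.382 in hepatocytes of untreated mice. Alb, which encodes albumin, averaged 33709 ± 20696 in reprogrammed cells, 13927 ± 7271 in biliary cells and 88157 ± 32398 in hepatocytes of DDC mice, against 22257 ± 3041 in biliary cells and 99297 ± 7155 in hepatocytes of untreated mice. All 19 measured hepatocyte markers reached a mean of 1 TPM in every group. In bulk RNA, fewer cells of a type and less RNA per cell cannot be told apart.

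The promoters of 4 genes are shown as examples: Abcb11 and Abcc2, whose ratio differed between diets, and Slc51b and Abcc4, the efflux genes that rose in hepatocytes and in biliary cells. They are the 250 bases upstream of the RefSeq start in GRCm38.p6, 5′ to 3′ in the direction of the gene. Capitals mark matches to the searched motifs. Abcb11 lies on the minus strand (chr2:69342617-69342866), Abcc2 on the plus strand (chr19:43782058-43782307), Slc51b on the minus strand (chr9:65422774-65423023) and Abcc4 on the minus strand (chr14:118706220-118706469).
Abcb11: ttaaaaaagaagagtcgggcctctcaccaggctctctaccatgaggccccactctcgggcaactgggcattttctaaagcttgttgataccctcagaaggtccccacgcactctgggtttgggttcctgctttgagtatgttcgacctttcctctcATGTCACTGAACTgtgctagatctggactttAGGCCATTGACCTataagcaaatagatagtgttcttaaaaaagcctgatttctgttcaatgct
Abcc2: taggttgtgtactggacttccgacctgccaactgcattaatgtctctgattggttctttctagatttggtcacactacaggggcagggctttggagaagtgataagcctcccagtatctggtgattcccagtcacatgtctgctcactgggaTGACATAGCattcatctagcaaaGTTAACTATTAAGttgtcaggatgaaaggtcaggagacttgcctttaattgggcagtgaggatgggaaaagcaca
Slc51b: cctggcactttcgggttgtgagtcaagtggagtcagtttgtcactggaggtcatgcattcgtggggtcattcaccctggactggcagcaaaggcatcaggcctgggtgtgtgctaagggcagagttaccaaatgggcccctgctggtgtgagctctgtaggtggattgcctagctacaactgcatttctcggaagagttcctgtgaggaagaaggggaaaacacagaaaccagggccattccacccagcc
Abcc4: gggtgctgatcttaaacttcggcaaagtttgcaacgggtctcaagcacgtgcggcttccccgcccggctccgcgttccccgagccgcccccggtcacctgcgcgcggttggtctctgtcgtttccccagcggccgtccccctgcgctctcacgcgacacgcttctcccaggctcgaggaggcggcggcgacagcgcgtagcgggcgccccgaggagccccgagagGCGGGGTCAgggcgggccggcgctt
Motifs were searched on both strands. The site of the bile acid receptor FXR, searched as AGGTCA and its reverse complement TGACCT with 1 base between them, was matched in the Abcb11 window by AGGCCATTGACCT at -63 to -51 with 1 mismatch and by ATGTCACTGAACT at -94 to -82 with 2 mismatches. Of 32851 promoter windows of this length, 0.0791% held it with at most 1 mismatch and 0.959% with at most 2. The antioxidant response element TGACNNNGC, bound by NRF2, was matched in Abcc2 by TGACATAGC at -98 to -90 and in this Abcc4 window by GCGGGGTCA, on the opposite strand, at -25 to -17. That short motif occurred in 10.2% of all windows. The Abcc2 window also held GTTAACTATTAAG at -75 to -63, which has 2 mismatches to the HNF1 motif, searched as GTTAAT and ATTAAC with 1 base between them, a match found in 1.24% of windows. The Slc51b window held no match to these motifs or to the HNF4 motif, AGGTCA repeated after 1 base, with at most 2 mismatches, which was in 3.24% of all windows. By the gene positions given below, the RefSeq starts used for Slc51b and Abcc2 lie inside the gene. Part of each of their windows is therefore not upstream of the gene as placed there, and bases further upstream were not searched. Both Abcc2 matches fall in that part, inside the gene. Of the 10 members, 9 were in the promoter table, and Abcc3 was not. The windows of Abcb4, whose ratio to Abcb11 also differed between diets, and of Abcb1a are not shown and held no match. The Slc10a2 window, also not shown, held a match to the HNF1 motif with 1 mismatch, at -224 to -212. That match was closer than the one in Abcc2. The Abcb1a window (chr5:8566841-8567090) lies far upstream of the gene as placed below, from 8660077 on. Bases next to that start were therefore not searched. A second window of Abcc4, at another RefSeq start, held TGACTCTGC at -23 to -15, also a match to the antioxidant response element. That whole window (chr14:118676932-118677181) lies inside the gene as placed below. These matches describe letters only.

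**Figure D1:**
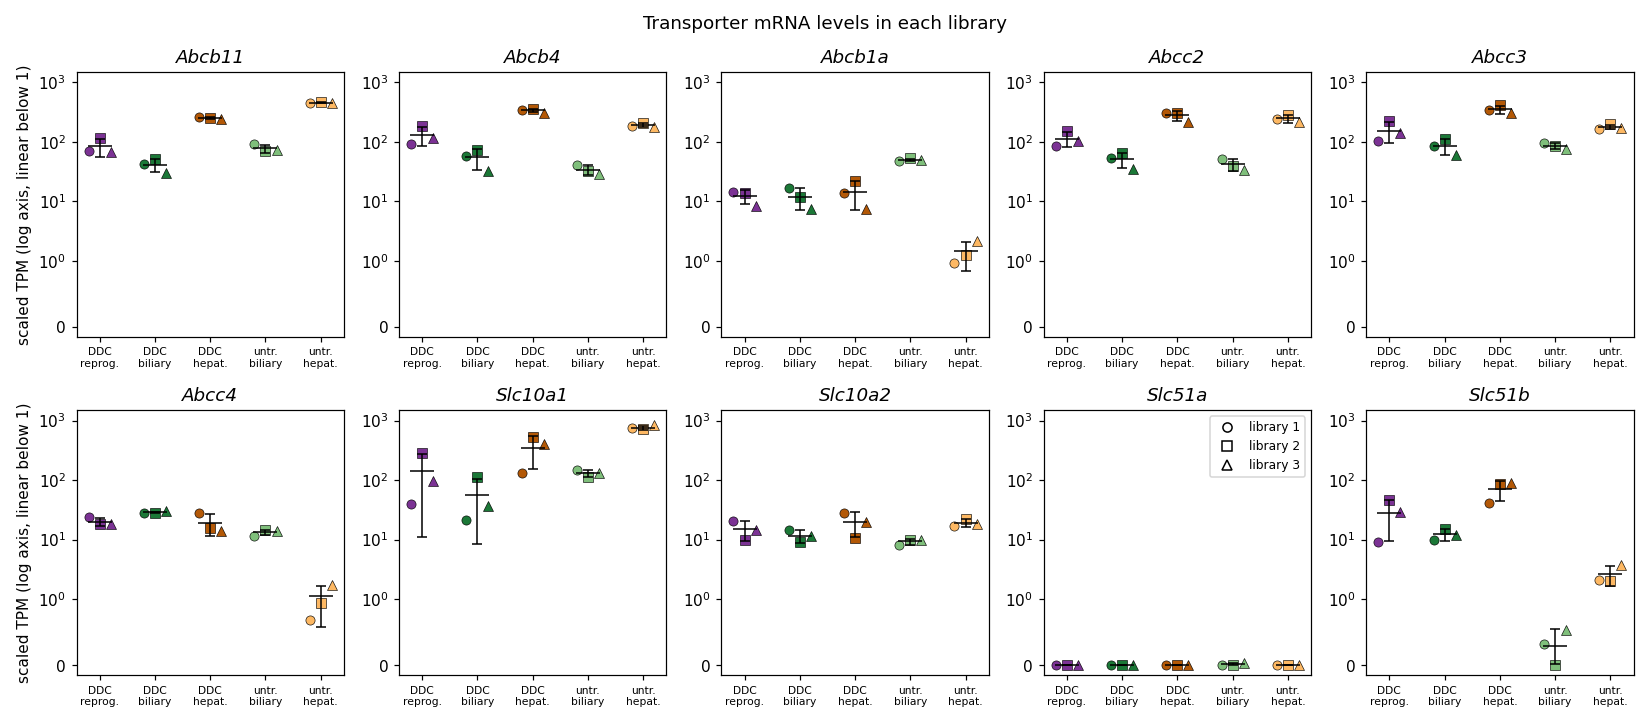
Level of each transporter mRNA by library, in scaled TPM on an axis that is linear below 1 and logarithmic above it. Circles, squares and triangles are libraries 1, 2 and 3 and bars are mean ± SD (n = 3). Abcb1a was highest in untreated biliary cells, and Slc51b was below 4 in every untreated library and above 8 in every DDC library.

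Slc10a1 (chromosome 12, 80953183 to 80968705, GRCm38, as are all gene positions here) was the uptake carrier with the higher level. It measured 39.4, 286 and 95.3 scaled TPM in libraries 1, 2 and 3 of reprogrammed cells, 21.5, 111 and 36.7 in biliary cells and 131, 524 and 401 in hepatocytes of DDC mice, against 146, 112 and 131 in biliary cells and 738, 720.1 and 834 in hepatocytes of untreated mice. Library 2 was highest and library 1 lowest in each of the 3 DDC groups, while the untreated groups were tight. Alb measured 15176, 56042 and 29909 in reprogrammed cells, 9919, 22320 and 9542 in biliary cells and 50843, 104484 and 109143 in hepatocytes of DDC mice, so that library 2 was its highest in the first 2 of these groups and library 1 its lowest in the first and the last.

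Slc10a2 (chromosome 8, 5083219 to 5105351) was the uptake carrier with the lower level. It measured 20.8, 9.84 and 14.5 in reprogrammed cells, 14.7, 9.05 and 11.3 in biliary cells and 28.5, 10.8 and 20.0 in hepatocytes of DDC mice, against 8.06, 9.87 and 9.95 in biliary cells and 17.0, 22.4 and 18.2 in hepatocytes of untreated mice. It was not called in any comparison of the reported fit, and all groups next to each other in the order of its means overlapped. Untreated biliary cells and untreated hepatocytes did not overlap (log2 difference -0.97, limma adjusted p = 0.0147). That difference was called after quantile normalization, at -1.23, and with a pseudocount of 0.1, at -1.04. In TPM as deposited it was 0.21, with overlap. Library 1 was highest and library 2 lowest in each DDC group.

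Abcb11 (chromosome 2, 69238282 to 69342616), the bile salt export pump, was highest in untreated hepatocytes. Its values were 69.6, 116 and 66.5 scaled TPM in reprogrammed cells, 42.4, 51.0 and 30.1 in biliary cells and 263, 247 and 244 in hepatocytes of DDC mice, against 91.8, 69.0 and 71.7 in biliary cells and 452, 462 and 446 in hepatocytes of untreated mice. Reprogrammed cells overlapped untreated biliary cells, and the other groups next to each other in the order of means did not overlap.

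Abcb4 (chromosome 5, 8893717 to 8959231), which moves phosphatidylcholine into bile, had another order, with DDC hepatocytes on top. It measured 92.3, 183 and 116 in reprogrammed cells, 57.9, 73.8 and 32.4 in biliary cells and 343, 359.7 and 309 in hepatocytes of DDC mice, against 40.9, 32.0 and 28.8 in biliary cells and 183, 207 and 181 in hepatocytes of untreated mice. Reprogrammed cells overlapped untreated hepatocytes, and both biliary groups overlapped each other.

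Abcc2 (chromosome 19, 43782192 to 43840740) measured 86.5, 149.8 and 105 in reprogrammed cells, 53.4, 64.8 and 34.9 in biliary cells and 309.9, 311 and 215 in hepatocytes of DDC mice, against 51.9, 39.2 and 33.8 in biliary cells and 244, 287 and 213 in hepatocytes of untreated mice. Both hepatocyte groups overlapped, as did both biliary groups, and reprogrammed cells lay between them without overlap.

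Abcb1a (chromosome 5, 8660077 to 8748575) was the canalicular member with its highest level outside hepatocytes. It measured 14.5, 13.7 and 8.49 in reprogrammed cells, 16.7, 11.7 and 7.38 in biliary cells and 14.04, 21.8 and 7.40 in hepatocytes of DDC mice, against 48.3, 52.7 and 49.4 in biliary cells and 0.968, 1.24 and 2.11 in hepatocytes of untreated mice. The 3 DDC groups overlapped one another, and untreated biliary cells and untreated hepatocytes stood apart above and below them. Abcb1b, a gene closely related to Abcb1a, averaged 3.27 in reprogrammed cells, 1.13 in biliary cells and 1.29 in hepatocytes of DDC mice. In untreated mice Abcb1b averaged 1.02 in biliary cells and 0.600 in hepatocytes. Some reads may be shared between both genes, and their split was not tested. Endothelium also expresses Abcb1a. The summed level of 12 endothelial markers was 22.7 to 33.3 TPM as deposited in reprogrammed cells, 26.9 to 68.4 in biliary cells and 8.84 to 11.4 in hepatocytes of DDC mice, against 27.8 to 42.8 in biliary cells and 3.98 to 6.82 in hepatocytes of untreated mice. None of the 12 was at 0 in every library of a group, and the defining marker Pecam1 averaged 1.06, 1.72 and 0.494 scaled TPM in the same 3 DDC groups, against 0.659 and 0.272 in the same 2 untreated ones. Their part in the Abcb1a levels was not tested.

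Abcc3 (chromosome 11, 94343295 to 94392997), the first of the blood-side pumps, was abundant in all groups. It measured 103, 221 and 138 in reprogrammed cells, 83.9, 113 and 60.0 in biliary cells and 340.0, 413 and 306 in hepatocytes of DDC mice, against 94.8, 86.4 and 75.9 in biliary cells and 166, 197 and 173 in hepatocytes of untreated mice. DDC hepatocytes lay above all other libraries, and the means of both biliary groups were 85.6 ± 26.4 under DDC and 85.7 ± 9.48 without it.

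Abcc4 (chromosome 14, 118482692 to 118706219) was near 1 scaled TPM in untreated hepatocytes. It measured 23.6, 18.4 and 18.1 in reprogrammed cells, 27.9, 28.3 and 29.7 in biliary cells and 27.8, 15.8 and 13.7 in hepatocytes of DDC mice, against 11.7, 14.3 and 13.96 in biliary cells and 0.678, 0.945 and 1.71 in hepatocytes of untreated mice. DDC biliary cells were highest and untreated hepatocytes lowest, each without overlap with its neighbour in the order of means.

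Slc51b (chromosome 9, 65412714 to 65422955) encodes the β subunit. It measured 8.98, 46.4 and 29.6 in reprogrammed cells, 9.76, 14.95 and 11.9 in biliary cells and 40.8, 84.6 and 88.9 in hepatocytes of DDC mice, against 0.327, 0 and 0.525 in biliary cells and 2.10, 2.003 and 3.70 in hepatocytes of untreated mice. Each DDC library lay above each untreated library. Slc51a (chromosome 16, 32474504 to 32487879), the partner subunit, was listed at 0 in 14 of the 15 libraries and at 0.0323 scaled TPM in library 3 of untreated biliary cells. It overlaps Pcyt1a on the other strand, Slc51b overlaps Rasl12 on the other strand, and whether the counting used strand could not be learned from the labels.

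Untreated biliary cells differed from untreated hepatocytes in 8 of the 9 tested members, 2 higher and 6 lower, against 37.2% of all genes called, 21.6% higher and 15.6% lower. The 2 higher ones were Abcb1a (log2 difference 4.42, SE 0.35, limma adjusted p = 2.22e-07) and Abcc4 (2.79, SE 0.23, adjusted p = 3.67e-07). Abcb11 was lower by a log2 difference of -2.54 (SE 0.21, adjusted p = 3.62e-07), and Abcb4, Abcc2 and Slc10a1 differed by -2.47, -2.56 and -2.55. Abcc3 was lower at -1.05 (adjusted p = 0.00298) and Slc51b at -1.48 (adjusted p = 0.0139), while Slc10a2 at -0.97 was short of the size asked. In TPM as deposited 5 members were called, 2 higher and 3 lower, where 7350 of the 13905 genes were called higher and 470 lower, and Abcc3 turned to +0.21 and Slc10a2 to +0.21, neither called.

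Under DDC, biliary cells stood below hepatocytes in 6 members and above them in none, against 34.7% of all genes called, 20.1% higher and 14.6% lower. The log2 differences were -2.61 for Abcb11, -2.68 for Abcb4, -2.45 for Abcc2, -2.07 for Abcc3, -2.73 for Slc10a1 and -2.39 for Slc51b, with limma adjusted p of 0.00397 for Slc10a1 and lower for the other 5. Neither gene that was higher in untreated biliary cells was called: Abcb1a differed by -0.20 (adjusted p = 0.623) and Abcc4 by 0.63 (adjusted p = 0.0303). Slc10a2 at -0.64 (adjusted p = 0.0893) was not called, and Slc51a has no test in any comparison. In TPM as deposited 1 member, Abcc4, was higher at 1.69 and 5 were lower, where 7142 of all genes were higher and 645 lower, and Abcb1a was at 0.82.

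In scaled TPM, reprogrammed cells had means between those of biliary cells and hepatocytes of the same diet in all 9 tested members. The share of all genes with this order was not computed. For Abcb1a, Slc10a1, Slc10a2 and Slc51b, reprogrammed libraries overlapped those of both other DDC groups. In TPM as deposited, Slc10a2 was highest in reprogrammed cells, at 19.1, against 17.9 in biliary cells and 14.1 in hepatocytes of DDC mice. Against DDC hepatocytes 5 members were lower and 0 higher, where 19.5% of all genes were called, 13.7% higher and 5.8% lower. Those 5 were Abcb11 (log2 difference -1.62, SE 0.21, limma adjusted p = 5.90e-05), Abcb4 (-1.42), Abcc2 (-1.30), Abcc3 (-1.25) and Slc51b (-1.49, adjusted p = 0.0198). Slc10a1 differed by -1.55 with adjusted p = 0.0855, and by the same amount with adjusted p = 0.000451 where libraries of the same number were paired. Abcb1a at -0.14, Abcc4 at 0.12 and Slc10a2 at -0.33 were not called. In TPM as deposited none of the 9 members was called and Abcb11 was at -0.82, where 4240 of the 13905 genes were called higher and 9 lower. Without library 1 of reprogrammed cells 3 members were called, and Slc51b was then at -0.85 (adjusted p = 0.0732). The call of Slc51b was also lost with a pseudocount of 0.1, with only both groups in the fit, and without library 2 or library 3 of DDC hepatocytes.

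Against DDC biliary cells, reprogrammed cells were higher in 2 members and lower in 0, where 3.63% of all genes were called, 2.91% higher and 0.726% lower. They were Abcb4 (log2 difference 1.26, SE 0.28, limma adjusted p = 0.0141) and Abcc2 (1.15, SE 0.26, adjusted p = 0.0149). Abcb11 at 0.9957 was short of 1 in size, with adjusted p = 0.0125. Slc10a1 differed by 1.19 with adjusted p = 0.271, or 0.00827 with paired libraries. Abcc3 at 0.82 (adjusted p = 0.0520), Slc51b at 0.90 (adjusted p = 0.214), Abcc4 at -0.51, Slc10a2 at 0.30 and Abcb1a at 0.07 were not called. The count was 0 in TPM as deposited, with only both groups in the fit, and without library 2 of reprogrammed cells or library 3 of DDC biliary cells. It was 5 without library 1 of reprogrammed cells and 4 without library 2 of DDC biliary cells.

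Against untreated hepatocytes, which differ in diet as well, reprogrammed cells were higher in 3 members and lower in 3, where 33% of all genes were called, 20.6% higher and 12.4% lower. The 3 higher ones were Abcc4 (log2 difference 3.33, limma adjusted p = 8.42e-08), Slc51b (2.79, adjusted p = 0.000207) and Abcb1a (2.43, adjusted p = 5.31e-05). The 3 lower ones were Slc10a1 (-2.88, adjusted p = 0.00300), Abcb11 (-2.47, adjusted p = 5.68e-07) and Abcc2 (-1.15, adjusted p = 0.00183). Abcc2 was at -0.09 in TPM as deposited and was then not called, while Abcb4, Abcc3 and Slc10a2, at -0.60, -0.28 and -0.38 and not called, turned to +0.46, +0.78 and +0.62. This comparison shares its reprogrammed libraries with both comparisons above, and its untreated hepatocytes with those of biliary cells and of DDC.

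**Figure D2:**
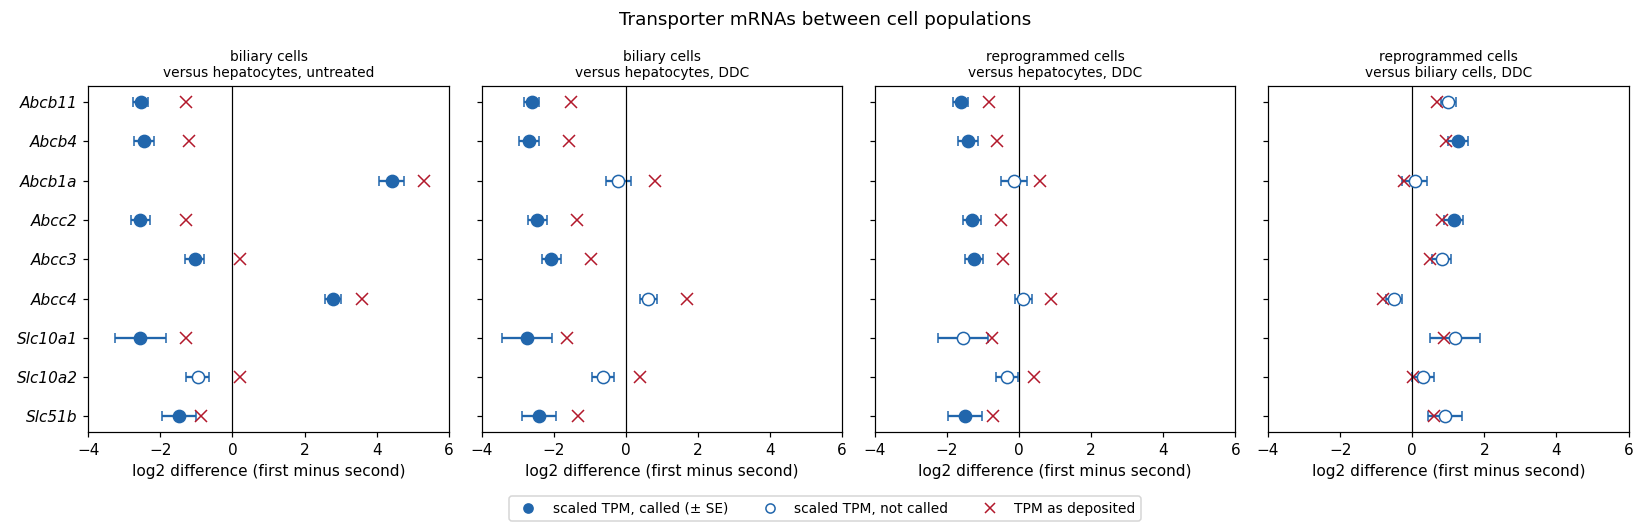
Log2 differences between cell populations for the 9 tested members, first-named population minus second. Circles with bars are scaled TPM ± SE from limma, filled where called and open where not, and crosses are TPM as deposited. Abcb11, Abcb4 and Abcc2 lie left of 0 in the 3 comparisons with hepatocytes on both scales, and Abcb1a lies at 4.42 in untreated cells and at -0.20 under DDC.

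The levels of Abcb11, Abcb4, Abcc2 and Slc10a1 were set beside the hepatocyte markers in the same libraries, as a percent of the mean of hepatocytes of the same diet in TPM as deposited. In reprogrammed cells Abcb11 stood at 56.8%, Abcb4 at 65.4%, Abcc2 at 68.9% and Slc10a1 at 65.8%, where the 19 hepatocyte markers had a median of 69.0% and ran from 59.1% (Cps1) to 91.6% (Ambp). In DDC biliary cells these 4 genes stood at 35.1%, 34.5%, 38.9% and 34.6%, in the order just given, and the markers had a median of 34.6% and ran from 30.2% (Apoc3) to 60.6% (Ambp). In untreated biliary cells the 4 stood at 41.1%, 42.8%, 40.3% and 40.9%, and the markers had a median of 42.5% and ran from 35.9% (Cyp2e1) to 112% (Ambp). All of these values lay within the range of the markers except Abcb11 in reprogrammed cells, which was below each of the 19. The marker medians per library were 48.8%, 92.5% and 63.2% in reprogrammed cells, against 30.1%, 47.7% and 23.6% in DDC biliary cells, with library 2 highest in both. The part of hepatocyte mRNA in the levels of these 4 genes in biliary and reprogrammed cells was not tested.

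The other 5 tested members were outside that range in at least 1 group. Abcc4 stood at 181% in reprogrammed cells and was at 319% in biliary cells of DDC mice, and Abcb1a at 147% and 176% in the same groups. Slc10a2 stood at 135%, 127% and 117% in reprogrammed, DDC biliary and untreated biliary cells. Abcc3 stood at 73.6% in reprogrammed cells, at 51.8% in DDC biliary cells, inside the range of the markers in both, and at 116% in untreated biliary cells, above all 19. Slc51b stood at 66.8% in reprogrammed cells, against 37.8% in DDC biliary cells, inside the range, and at 26.0% of a low hepatocyte level in untreated biliary cells. These percents are in TPM as deposited, where the median gene itself stood above its hepatocyte level. On scaled TPM, Slc10a2 stood at 76.2% in reprogrammed, 59.2% in DDC biliary and 48.4% in untreated biliary cells. Abcb1a then stood at 84.8% in reprogrammed and 82.7% in DDC biliary cells, and Abcc3 at 48.1% in untreated biliary cells. Abcc4 stood at 105% in reprogrammed and 150% in DDC biliary cells on that scale.

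**Figure D3:**
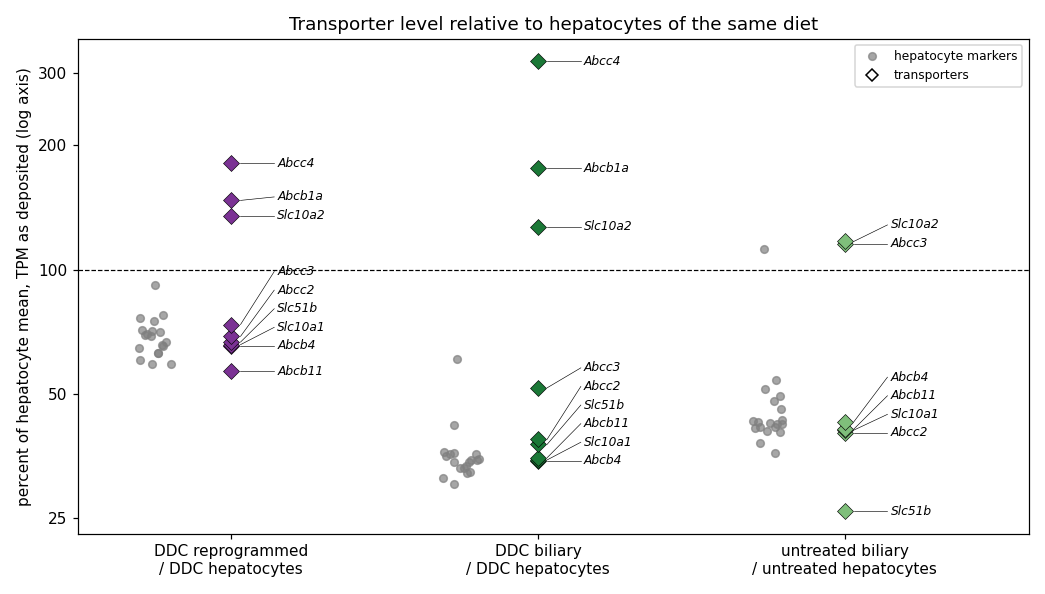
Level of each transporter mRNA as percent of the hepatocyte mean of the same diet, TPM as deposited, on a log axis. Grey dots are 19 hepatocyte markers and diamonds are transporters whose hepatocyte mean reached 1 TPM, so Abcb1a and Abcc4 are not drawn for untreated cells. Abcc4 stands at 319% in DDC biliary cells while Abcb11, Abcb4, Abcc2 and Slc10a1 stand at 34.5% to 38.9%.

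Slc51b, Abcc4 and Abcb1a rose in DDC hepatocytes, and none of the 9 tested members was called lower there. Against untreated hepatocytes, DDC hepatocytes had 3 of the 9 members higher and 0 lower, where 11% of all genes were called, 6.62% higher and 4.39% lower. Slc51b rose to 71.4 ± 26.6 scaled TPM in DDC hepatocytes, against 2.601 ± 0.953 in untreated hepatocytes (log2 difference 4.28, SE 0.47, limma adjusted p = 3.52e-05). Abcc4 rose to 19.1 ± 7.60 in DDC hepatocytes, against 1.11 ± 0.537 in untreated ones (3.21, SE 0.23, adjusted p = 9.33e-07). Abcb1a rose to 14.4 ± 7.21 in DDC hepatocytes, against 1.44 ± 0.599 in untreated ones (2.57, SE 0.35, adjusted p = 0.000161). For each of these 3 genes, all DDC libraries lay above all untreated ones. Markers of biliary cells moved with them: 7 of 16 were called higher in DDC hepatocytes, and their summed level was 221 to 421 TPM as deposited in DDC hepatocytes, against 12.0 to 15.01 in untreated hepatocytes. Most of that sum was Spp1, which encodes osteopontin, at 420.3 ± 158 scaled TPM in DDC hepatocytes, against 6.11 ± 2.03 in untreated ones. The part of biliary cell mRNA in the increases of Abcc4 and Abcb1a, and in those of Abcc5 and Ezr given further on, was not tested.

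Another 3 members passed the p threshold at a size short of 1. Abcb11 averaged 251 ± 10.1 in DDC hepatocytes and 453 ± 7.92 in untreated hepatocytes (log2 difference -0.85, SE 0.21, limma adjusted p = 0.00979). Abcb4 averaged 337 ± 25.6 in DDC hepatocytes and 190.2 ± 14.7 in untreated ones (0.82, SE 0.28, adjusted p = 0.0432). Abcc3 averaged 353 ± 54.6 in DDC hepatocytes and 178 ± 16.2 in untreated ones (0.97, SE 0.26, adjusted p = 0.0141). In TPM as deposited Abcb4 at 1.08 and Abcc3 at 1.23 were called, which made 5 members higher. Slc10a1 averaged 352 ± 201 in DDC hepatocytes and 764 ± 61.2 in untreated ones (-1.33, SE 0.70, adjusted p = 0.183), without overlap of the libraries. Abcc2 at 0.16 and Slc10a2 at -0.05 were not called, and Slc10a2 was at 0.20 in TPM as deposited.

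In biliary cells, DDC went with 2 members higher and 1 lower than in untreated biliary cells, where 10.4% of all genes were called, 5.63% higher and 4.78% lower. Slc51b rose to 12.2 ± 2.61 scaled TPM in DDC biliary cells, against 0.284 ± 0.265 in untreated ones (log2 difference 3.37, SE 0.47, limma adjusted p = 0.000217). Abcc4 rose to 28.6 ± 0.942 in DDC biliary cells, against 13.3 ± 1.44 in untreated ones (1.05, SE 0.23, adjusted p = 0.00508), a call that was lost with a pseudocount of 5, at 0.88, and without library 1 of untreated biliary cells, at 0.97. Abcb1a fell to 11.9 ± 4.67 in DDC biliary cells, against 50.1 ± 2.29 in untreated ones (-2.05, SE 0.35, adjusted p = 0.000926). Abcb11 at -0.92 (adjusted p = 0.00668) was short of 1 in size, Slc10a1 at -1.51 had adjusted p = 0.131, and Abcb4, Abcc2, Abcc3 and Slc10a2 at 0.61, 0.27, -0.04 and 0.28 were not called. The sign of Abcc3 depended on the scaling, at 0.06 in TPM as deposited and 0.11 after quantile normalization. Without library 2 of DDC biliary cells 5 members were called. DDC biliary libraries also held hepatocyte mRNA: their Slc51b level was 37.8% of that of DDC hepatocytes, beside a median of 34.6% for the hepatocyte markers. The part of hepatocyte mRNA in this increase was not tested.

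The difference between the responses, biliary minus hepatocyte, was tested as an interaction. It was called lower for 2 members and higher for 0, where 8.42% of all genes were called, 3.39% higher and 5.03% lower. Abcb1a had the opposite response in the 2 cell types (interaction -4.62, SE 0.49, limma adjusted p = 6.39e-05). Abcc4 rose in both, and by less in biliary cells (-2.16, SE 0.33, adjusted p = 0.000868). For Abcc3 the interaction was -1.02 (SE 0.37, adjusted p = 0.0939), and it was called at -1.17 in TPM as deposited (adjusted p = 0.0227). It was also called with only the compared groups in the fit (adjusted p = 0.0429) and with libraries paired by number (adjusted p = 0.0203). Between DDC biliary cells and DDC hepatocytes, deviations of same-numbered libraries from group means correlated at 0.318, 0.319 and 0.0430. The last was under the 0.1 set for pairing. The Abcc3 interaction was also called without library 2 of reprogrammed cells (adjusted p = 0.0405) or library 2 of DDC biliary cells (adjusted p = 0.0470). For Slc51b the interaction was -0.92 (SE 0.67, adjusted p = 0.456). For Abcb11, Abcb4, Abcc2, Slc10a1 and Slc10a2 it lay between -0.21 and 0.33, with SE up to 0.99 for Slc10a1, and none was called.

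**Figure D4:**
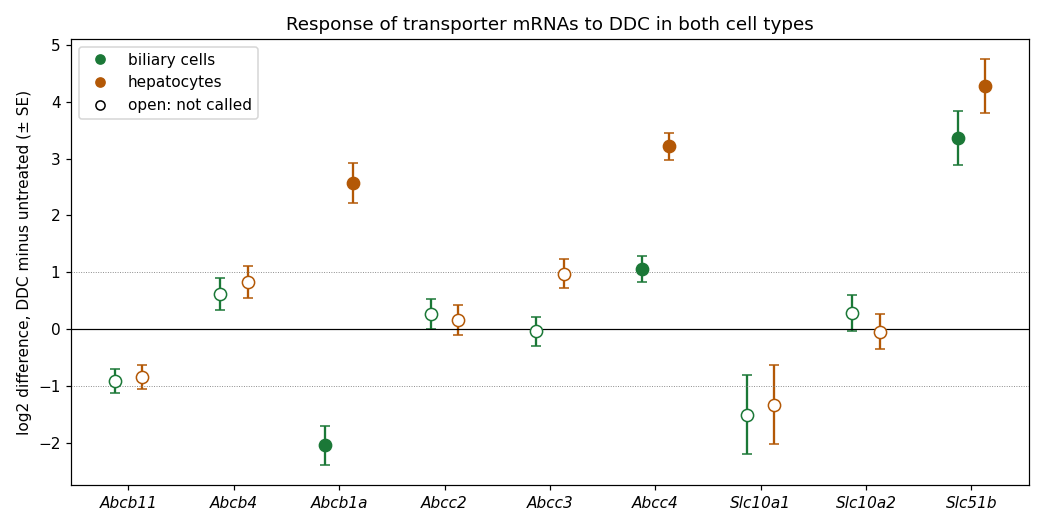
Log2 difference of DDC minus untreated cells for the 9 tested members, in biliary cells (green) and hepatocytes (brown), with bars of ± SE from limma. Filled symbols are called and open ones are not. Slc51b and Abcc4 lie above 0 in both cell types, and Abcb1a lies at -2.05 in biliary cells and at 2.57 in hepatocytes.

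Ratios of 2 members within a library need no scale factor. They were chosen after their values were seen and are given without a test. Abcb4 over Abcb11 was 1.33, 1.58 and 1.75 in reprogrammed cells, 1.37, 1.45 and 1.08 in biliary cells and 1.31, 1.46 and 1.27 in hepatocytes of DDC mice, against 0.445, 0.465 and 0.402 in biliary cells and 0.404, 0.448 and 0.405 in hepatocytes of untreated mice. The floppase mRNA exceeded that of the bile salt pump in all 9 DDC libraries and was lower than it in all 6 untreated ones.

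Abcc2 over Abcb11 was 1.24, 1.30 and 1.57 in reprogrammed cells, 1.26, 1.27 and 1.16 in biliary cells and 1.18, 1.26 and 0.882 in hepatocytes of DDC mice, against 0.565, 0.568 and 0.471 in biliary cells and 0.540, 0.621 and 0.476 in hepatocytes of untreated mice. All DDC libraries again lay above all untreated ones. Slc10a1 over Abcb11 did not separate the diets: it was 0.567, 2.47 and 1.43 in reprogrammed cells, 0.507, 2.17 and 1.22 in biliary cells and 0.499, 2.12 and 1.65 in hepatocytes of DDC mice, against 1.59, 1.63 and 1.82 in biliary cells and 1.63, 1.56 and 1.87 in hepatocytes of untreated mice. Libraries of the same number were close to each other across the 3 DDC populations in this ratio, with library 1 low and library 2 high in each. Abcc3 over Abcb11 was 1.48, 1.91 and 2.08 in reprogrammed cells, 1.98, 2.21 and 1.99 in biliary cells and 1.30, 1.67 and 1.26 in hepatocytes of DDC mice, against 1.03, 1.25 and 1.06 in biliary cells and 0.367, 0.425 and 0.387 in hepatocytes of untreated mice. Within each diet, all biliary libraries lay above all hepatocyte libraries in this ratio. All DDC libraries lay above all untreated ones only narrowly, with a lowest of 1.256 in DDC hepatocytes against a highest of 1.252 in untreated biliary cells. Reprogrammed cells overlapped both other DDC groups in this ratio.

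**Figure D5:**
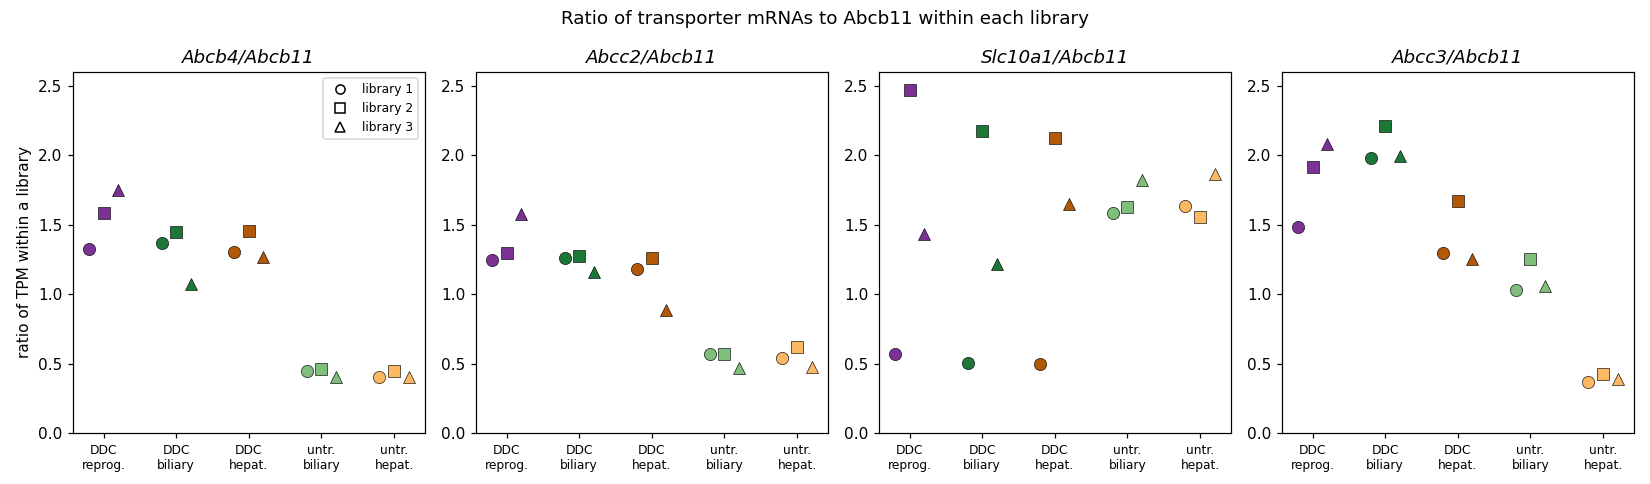
Ratio of 4 transporter mRNAs to Abcb11 within each library, from TPM. Circles, squares and triangles are libraries 1, 2 and 3 of each group. Abcb4 over Abcb11 is above 1 in all 9 DDC libraries and below 0.5 in all 6 untreated ones, and Slc10a1 over Abcb11 varies between DDC libraries.

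Other genes of the pathway were taken from lists. Of 16 genes of bile acid synthesis and conjugation, DDC hepatocytes had 6 lower and 0 higher than untreated hepatocytes, with a median log2 difference of -0.885 against 0.018 over all genes, and DDC biliary cells had 6 lower and 0 higher than untreated biliary cells, with a median of -0.899 against -0.029. The share of all genes called lower was 4.39% in hepatocytes and 4.78% in biliary cells. Cyp8b1, the sterol hydroxylase that sets the share of cholic acid, fell to 23.0 ± 10.4 scaled TPM in DDC hepatocytes, against 388 ± 163 in untreated ones (log2 difference -3.99, limma adjusted p = 0.000722). Cyp7b1, the oxysterol hydroxylase of the alternative pathway, fell to 13.3 ± 4.20 in DDC hepatocytes, against 315 ± 181 in untreated ones (-4.33, adjusted p = 4.25e-05). Cyp7a1, the rate-limiting enzyme of bile acid synthesis, was not called: it averaged 142 ± 94.2 in DDC hepatocytes and 36.2 ± 13.2 in untreated ones (1.80, adjusted p = 0.0838), and 25.3 ± 24.0 in DDC biliary cells and 5.31 ± 1.85 in untreated ones (1.73, adjusted p = 0.0976). In reprogrammed cells Cyp8b1 and Cyp7b1 averaged 9.29 ± 9.53 and 7.71 ± 1.28. Set against DDC hepatocytes, reprogrammed cells had 12 of the 16 genes lower and 0 higher, with a median of -1.366, where 5.8% of all genes were lower, and against DDC biliary cells 6 higher and 0 lower, with a median of 1.102, where 2.91% of all genes were higher.

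Of 20 other uptake and efflux transporters, DDC hepatocytes had 6 lower and 1 higher than untreated hepatocytes, and DDC biliary cells had 6 lower and 0 higher than untreated biliary cells, beside the same 4.39% and 4.78% of all genes lower. Slco1a1, an organic anion uptake carrier, fell to 0.144 ± 0.174 in DDC hepatocytes, against 440.0 ± 48.6 in untreated ones (log2 difference -8.60, limma adjusted p = 2.78e-12). It fell to 0.0868 ± 0.141 in DDC biliary cells, against 70.7 ± 14.3 in untreated ones (-6.03, adjusted p = 1.55e-10). Slc22a7, another organic anion carrier, averaged 15.3 ± 7.25 in DDC hepatocytes and 64.2 ± 11.2 in untreated ones, a log2 difference of -2.07. The higher one was Abcc5, a pump for cyclic nucleotides and organic anions, at 4.86 ± 1.06 in DDC hepatocytes, against 0.396 ± 0.171 in untreated ones (2.06, adjusted p = 2.99e-06). Its DDC response in biliary cells, at -0.48, was not called, and the interaction was -2.54 (adjusted p = 2.53e-05). Abcc1, a pump for glutathione and other conjugates, averaged 10.4 ± 1.16 in reprogrammed cells, 17.9 ± 3.31 in biliary cells and 0.964 ± 1.06 in hepatocytes of DDC mice, with a log2 difference of 2.67 between reprogrammed cells and DDC hepatocytes (adjusted p = 6.32e-06).

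Of 19 tested receptors and regulators of transporter genes, 1 was lower and 0 higher in DDC than in untreated hepatocytes, a share near the 4.39% of all genes called lower. It was Nr0b2, which encodes SHP, a repressor induced by FXR, at 34.4 ± 30.5 in DDC hepatocytes, against 89.0 ± 14.3 in untreated ones (log2 difference -1.68, limma adjusted p = 0.0109). In DDC biliary cells Nr0b2 fell to 8.52 ± 1.88, against 62.5 ± 4.56 in untreated biliary cells (-2.75, adjusted p = 0.000460). That comparison had 2 regulators higher and 2 lower, where 5.63% of all genes were higher and 4.78% lower, among them Ahr, the dioxin receptor, at 38.6 ± 4.32 in DDC biliary cells, against 14.3 ± 1.70 in untreated ones (1.37, adjusted p = 1.05e-05). Against DDC hepatocytes, reprogrammed cells had 7 of the 19 lower and 1 higher, where 5.8% of all genes were lower and 13.7% higher.

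Of 16 genes that tether or traffic canalicular proteins, reprogrammed cells had 4 higher and 2 lower than DDC hepatocytes, where 13.7% of all genes were higher and 5.8% lower. Ezr and Msn encode ezrin and moesin, which link membrane proteins to actin. Ezr averaged 109.6 ± 20.3 in reprogrammed cells and 9.69 ± 3.10 in DDC hepatocytes (log2 difference 3.39, limma adjusted p = 6.21e-08), and Msn 48.9 ± 11.2 in reprogrammed cells and 1.93 ± 0.622 in DDC hepatocytes (4.09, adjusted p = 6.73e-08). Ezr also rose within hepatocytes, to 9.69 ± 3.10 in DDC hepatocytes, against 1.04 ± 0.280 in untreated ones (2.35, adjusted p = 6.39e-06). Pdzk1, a scaffold protein of the apical membrane, was the one called gene of this list between reprogrammed and DDC biliary cells, at 24.5 ± 4.85 in reprogrammed cells, against 9.07 ± 5.53 in DDC biliary cells (1.48, adjusted p = 0.0159). The sums of stellate and fibroblast markers were 293 to 566 TPM as deposited in reprogrammed cells and 593 to 1041 in DDC biliary cells, against 9.98 to 17.6 in DDC hepatocytes. Most of these sums in reprogrammed and biliary cells was Rgs5, at 342 ± 73.1 scaled TPM in reprogrammed cells, 460 ± 87.8 in biliary cells and 6.39 ± 4.22 in hepatocytes of DDC mice, while the defining markers Acta2, Des, Pdgfra, Pdgfrb and Lrat averaged at most 1.09 in each of these 3 groups. The part of stellate and fibroblast mRNA in Ezr and Msn, which such cells also express, was not tested.

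The genes closest in pattern to each member were named by Pearson's r of log2(scaled TPM + 1) over the 15 libraries, which share cell type and diet. Abcb11 was followed most closely by Mthfd1 (r = 0.997), Idh3b and Sdha, Abcb4 by Ces1g (r = 0.993), Hsd17b13 and Cfb, and Abcc2 by Cpt1a (r = 0.990), Slc35d1 and Hdlbp. Slc10a1 was closest to Rdh16f2 (r = 0.990), Pck1 and Hal, and Slc10a2 to Rangap1 (r = 0.959), Ywhag and Trmt11. Abcc3 was closest to Slc16a7 (r = 0.990), Abcc4 to Cd9 (r = 0.981), Serpinb6a and Cd14, and Slc51b to Lacc1 (r = 0.988), Ankrd55 and Nudt18. The highest r for Abcb1a, 0.953 with Klhl13, was below that of each other member.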

How the data were processed

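RNA-seq of total RNA from 15 libraries of sorted mouse liver cells was analysed, with each column assigned to its library by its title. Per the submitters' processing notes, the authors deposited gene TPM made with Salmon for mm10. The Salmon version and the annotation are not given in the sources used here. TPM keeps no read totals, so count tests were not used and the depth per library is unknown. Positions are from GENCODE M21 (GRCm38) and promoters from RefSeq (GRCm38.p6).

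Genes with TPM of at least 1 in at least 3 libraries were kept (13905 of 24493). Each library was divided by the median ratio to the geometric mean over 12427 genes above 0 in every library. A single limma model (version 3.58.1, R 4.3.3) of all 5 groups was fitted to log2(scaled TPM + 1), with the trend option and 10 degrees of freedom left. A gene was called at a Benjamini-Hochberg adjusted p below 0.05 together with a log2 difference of 1 or more in either direction. The fit was tested on simulated data. Figures used matplotlib 3.10.9 in Python 3.11.15. The members, lists, tests and alternatives were chosen with earlier results of these data known.

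Values of all 10 members are given, with the comparisons of the 9 tested ones. Other named genes come from 4 lists, up to 4 called genes per list and comparison, taken by the size of the log2 difference where the higher group averaged 5 scaled TPM or more, and up to 3 genes per member with the highest r. Marker genes and Abcb1b were added beside the members they bear on. The list of hepatocyte markers had 19 of its 20 genes in the table.

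Library numbers were checked for pairing by correlating deviations from group means. Same-numbered libraries correlated at 0.151 to 0.237 between untreated biliary cells and hepatocytes. The range was 0.136 to 0.449 for reprogrammed cells with DDC hepatocytes and 0.208 to 0.456 for reprogrammed cells with biliary cells under DDC. All were over 0.1, the bound set for pairing, although the labels name no shared animal. The reported fit holds no pairing, so its counts and p-values ignore it, and paired results are given only as an alternative. For DDC biliary cells and DDC hepatocytes the range was 0.0430 to 0.319, with the lowest under that bound. Every count was recomputed without each library in turn, from TPM as deposited, after quantile normalization, with a pseudocount of 0.1 or 5, without a filter or with one at 5 TPM, from the compared groups alone, with the replicate number as a block, by the adjusted p alone and without the trend.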

Additional observations from a re-analysis of the deposited data

Results flagged for a closer look

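Abcb1a and Abcc4 responded to DDC differently in the 2 cell types, by a test of the difference itself. For Abcb1a the biliary response minus the hepatocyte response was -4.62 on the log2 scale (SE 0.49, limma adjusted p = 6.39e-05). It averaged 11.9 scaled TPM in DDC biliary cells and 14.4 in DDC hepatocytes, against 50.1 in biliary cells and 1.44 in hepatocytes of untreated mice. For Abcc4 the difference was -2.16 (SE 0.33, limma adjusted p = 0.000868). It averaged 28.6 in DDC biliary cells and 19.1 in DDC hepatocytes, against 13.3 in biliary cells and 1.11 in hepatocytes of untreated mice. Both stayed called in each alternative run, with Abcb1a between -5.31 and -3.27 and Abcc4 between -2.90 and -1.06 over the processing alternatives.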

How the results depend on the processing

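The counts of called members depended on the scaling of libraries, the groups in the fit, the call rule and single libraries. In TPM as deposited they were 5 for untreated biliary cells against hepatocytes (8 as reported), 0 for reprogrammed cells against DDC hepatocytes (5), 0 for reprogrammed against DDC biliary cells (2) and 5 for DDC against untreated hepatocytes (3). Quantile normalization gave 2 for reprogrammed cells against DDC hepatocytes, only the compared groups gave 0 for reprogrammed against DDC biliary cells, and the adjusted p alone gave 6 for DDC against untreated hepatocytes. Leaving out 1 library gave 3 to 6 for reprogrammed cells against DDC hepatocytes, 0 to 5 for reprogrammed against DDC biliary cells and 2 to 5 for DDC against untreated biliary cells. The cause was not tested. In the other comparisons, the counts of members stayed within 1.5 times the reported one under these alternatives. On scaled TPM the median percent of the hepatocyte level of Abcb11, Abcb4, Abcc2 and Slc10a1 was 39.2 in reprogrammed cells (65.6 in TPM as deposited), 16.3 in DDC biliary cells (34.8) and 17.0 in untreated biliary cells (41.0).

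Calls over all genes moved too: for untreated biliary cells against hepatocytes 7820 in TPM as deposited (7350 higher and 470 lower), 3369 with a pseudocount of 5 and 9298 with the adjusted p alone (5168 as reported), and for reprogrammed against DDC biliary cells 306 with a pseudocount of 5, 3 with only these groups, 2062 with the adjusted p alone and 100 to 839 with 1 library left out (505).

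Signs turned for members that were not called, with 1 exception, Abcc3 in untreated biliary cells against hepatocytes. In TPM as deposited that was 0.21 for Abcc3 and 0.21 for Slc10a2 there; 0.82 for Abcb1a and 0.41 for Slc10a2 in DDC biliary cells against DDC hepatocytes; 0.59 for Abcb1a and 0.42 for Slc10a2 in reprogrammed cells against DDC hepatocytes; and -0.23 for Abcb1a in reprogrammed against DDC biliary cells. It was 0.46 for Abcb4, 0.78 for Abcc3 and 0.62 for Slc10a2 in reprogrammed cells against untreated hepatocytes, 0.20 for Slc10a2 in DDC against untreated hepatocytes, 0.063 for Abcc3 in DDC against untreated biliary cells and -0.0427 for Abcc2 in the difference between responses. Quantile normalization gave 0.0873 for Abcb4 and 0.42 for Abcc3 in reprogrammed cells against untreated hepatocytes, 0.11 for Abcc3 in DDC against untreated biliary cells and -0.0112 for Abcc2 in the difference between responses, and a pseudocount of 0.1 gave 0.64 for Slc51b in that difference. With 1 library left out, Abcb1a ran from -0.59 to 0.13 in DDC biliary cells against hepatocytes, from -0.52 to 0.20 in reprogrammed cells against DDC hepatocytes and from -0.21 to 0.33 in reprogrammed against DDC biliary cells, and Abcc4 from -0.0784 to 0.41 in reprogrammed cells against DDC hepatocytes. Slc10a2 ran from -0.35 to 0.31 in DDC against untreated hepatocytes and Abcc3 from -0.26 to 0.19 in DDC against untreated biliary cells. The difference between responses ran from -0.24 to 0.14 for Abcb11, -0.47 to 0.12 for Abcb4, -0.0884 to 0.35 for Abcc2, -0.83 to 0.33 for Slc10a1 and -0.0295 to 0.64 for Slc10a2.

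With the replicate number as a block within treatment, 8 members were called in untreated and 6 in DDC biliary cells against hepatocytes, 6 in reprogrammed cells against DDC hepatocytes, 3 in reprogrammed against DDC biliary cells and 3 in the difference between responses. In the reported fit the shares of all genes called were 37.2%, 34.7%, 19.5%, 3.63% and 8.42%, in the same order. With the block, the number of all genes called stayed within 1.5 times the reported one in each of these comparisons. Beyond Slc10a1 in both comparisons of reprogrammed cells, the block changed only the call of Abcc3 in the difference between responses (-1.02, limma adjusted p = 0.0203). It was not run between diets, where the numbers did not pair the libraries. Depth is unknown, which limits what can be said of Slc51a.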
